A study of Mus musculus with 12 samples.

Results

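Gap43, Tagln3, Cfl1, Ssh3, Coro1b, Ppp1ca, Klc2 and Nde1 are 8 genes of the growth cone, the actin cytoskeleton and microtubule transport. They were chosen by name from the 35129 gene entries of the series, and all 8 had an entry. RNA was sequenced from fluorescent cortical neurons that were aspirated with a micropipette, 30 cells from each mouse, so that each library is 1 mouse. Sst-neurons came from GIN mice on an FVB background, in which a Gad transgene drives enhanced green fluorescent protein in some of the somatostatin (Sst) interneurons. Thy1-neurons came from YFPH mice on a B6 background, in which a Thy1 transgene drives yellow fluorescent protein in pyramidal neurons of layer V. All mice were males of 20 g and 5 to 7 weeks, and a subcutaneous mini pump gave them saline (Sst and Thy1) or nicotine hydrogen tartrate at 48 mg/kg/d (Sst+Nic and Thy1+Nic) for 14 days. Of 12 samples, 10 libraries were used and the others were not analysed here. Sst and Thy1+Nic had 3 libraries each, and Sst+Nic and Thy1 had 2 each. Because each cell type came from its own mouse line, cell type, strain background and transgene cannot be told apart.

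A growth cone is the moving tip of a growing axon, and in it actin filaments pull and push the edge forward while microtubules carry material into it. Actin filaments turn over because cofilin severs them. Cofilin is switched off by phosphorylation and switched on again by Slingshot phosphatases, and coronins help to bring both to the filament. Along microtubules, kinesin-1 carries cargo outward through its light chains, and dynein carries cargo inward with the help of Nde1 and its partners. Adult cortical neurons keep much of this machinery at synapses and in axons.

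The total per library lay between 2915738 and 4878326 fragments. This was 20.0% to 27.3% of the uniquely mapped read pairs in the study's mapping table. Levels and shares of fragments below therefore refer to the counted fragments, not to all RNA of a library. Levels are given as CPM, the count per 1000000 fragments of the library's total. A gene without a count may still be present below the level of 3 counts, which is 0.615 to 1.03 CPM depending on the library. Intervals and limits of this kind cover counting error only. Mitochondrially encoded genes took 21.2% to 22.1% of the fragments in Sst, 16.3% to 19.8% in Sst+Nic, 31.7% to 35.7% in Thy1 and 31.4% to 38.5% in Thy1+Nic. Entries of the table were not equally filled along the genome. Within the first 15 Mb of chromosome 8, the first 88 Mb of chromosome 16 and the first 6 Mb of chromosome 19, 409 of 730 protein-coding entries (56.0%) had a mean of at least 50 counts, whereas 2276 of 19926 (11.4%) did in the rest of the nuclear genome. All 8 genes lie in these well filled stretches, and other genes are named only from them. Of 40 cell type markers, 3 lie there. Sst itself was at 53779 to 126088 CPM in the 5 libraries of GIN mice. In Thy1-neurons Sst was at 1.15 CPM in Thy1 replicate 2, 49.2, 2.36 and 1.77 CPM in the Thy1+Nic replicates 1, 2 and 3, and 3795 CPM in Thy1 replicate 3. The latter library therefore held a transcript that its label does not predict, and the main differences that include it are also given without it. Cldn5 of endothelial cells and Cd86 of microglia were each at 0 in 6 of the 10 libraries, and in the other 4 they ranged from 7.36 to 35.7 CPM and from 0.275 to 50.5 CPM. With RNA from pooled cells, fewer cells that use a gene and less RNA per cell cannot be told apart.

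Positions are those of GRCm38, the build to which the authors aligned their reads. On chromosome 16 lie Nde1 (14163275 to 14192928, plus strand), Gap43 (42248552 to 42340651, minus strand) and Tagln3 (45711230 to 45724531, minus strand). The other 5 genes lie within 1.35 Mb of each other on chromosome 19. They are Coro1b (4148611 to 4154035, plus strand), Ppp1ca (4192174 to 4195419, plus strand), Ssh3 (4261668 to 4269233, minus strand), Klc2 (5107746 to 5118298, minus strand) and Cfl1 (5490455 to 5494031, plus strand). Some share exon bases with a neighbour, and whether fragments were counted by strand is not given in the sources used here. Snx32, on the opposite strand, covers 468 bases or 16.5% of the exon bases of Cfl1, with a mean of 281 CPM. Ptprcap, on the same strand, covers 432 bases or 13.5% of Coro1b, with a mean of 1.94 CPM. The shares were 8.93% for Rad9a in Ppp1ca, 10.6% for an antisense transcript in Klc2 and 2.40% for Marf1 in Nde1, so that fragments from these bases are uncertain as to their gene.

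Promoter sequences of RefSeq (GRCm38.p6) were at hand for 4 of the 8 genes. These 4 are shown because they were available, and not for their levels. They belong to the 2 most abundant (Cfl1 and Tagln3) and the 2 least abundant (Ssh3 and Nde1) of the genes per length, as described further on. Each is printed in the direction of its gene and covers the part of the 250 bases before the start that lies outside any annotated exon. Capitals mark a CCAAT box (CCAAT) or a GC box (GGGCGG), each searched on both strands. The first is Tagln3, chr16:45724609-45724781, minus strand.
Tagln3: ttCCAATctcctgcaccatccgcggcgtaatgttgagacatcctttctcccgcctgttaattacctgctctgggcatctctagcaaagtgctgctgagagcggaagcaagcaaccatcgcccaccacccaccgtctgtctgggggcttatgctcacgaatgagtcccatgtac
The next is Cfl1, chr19:5490205-5490454, plus strand.
Cfl1: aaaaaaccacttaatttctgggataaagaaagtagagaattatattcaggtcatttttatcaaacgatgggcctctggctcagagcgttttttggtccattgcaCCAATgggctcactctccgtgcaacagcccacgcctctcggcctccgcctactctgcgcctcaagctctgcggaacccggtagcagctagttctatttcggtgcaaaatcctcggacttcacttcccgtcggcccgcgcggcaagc
The next is Ssh3, chr19:4269234-4269483, minus strand.
Ssh3: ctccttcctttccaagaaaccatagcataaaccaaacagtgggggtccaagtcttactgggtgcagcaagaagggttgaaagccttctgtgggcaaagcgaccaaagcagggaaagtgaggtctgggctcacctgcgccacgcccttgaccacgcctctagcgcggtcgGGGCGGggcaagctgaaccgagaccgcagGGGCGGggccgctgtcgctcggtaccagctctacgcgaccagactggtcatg
The last is Nde1, chr16:14163025-14163220, plus strand.
Nde1: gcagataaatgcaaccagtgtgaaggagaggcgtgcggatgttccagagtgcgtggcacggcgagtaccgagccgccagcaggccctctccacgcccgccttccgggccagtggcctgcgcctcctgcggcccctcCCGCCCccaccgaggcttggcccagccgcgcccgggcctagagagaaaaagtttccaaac

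The printed stretches of the abundant Tagln3 and Cfl1 each held 1 CCAAT box and no GC box. The stretch of Ssh3 held 2 GC boxes, and that of Nde1 held 1, which stands on the opposite strand. A CCAAT box on the opposite strand also lies in the 250 bases before the start of Nde1, outside the printed stretch. GC made up 54.9% of the bases of Tagln3, 52.0% of Cfl1, 60.8% of Ssh3 and 67.9% of Nde1. In windows of 250 bases before 32851 starts, longer than the printed stretches of Tagln3 and Nde1, 33.8% held a CCAAT box and 32.7% a GC box, so that either is common. A TATA box (TATAAA, in 12.4% of promoters), a cAMP response element (TGACGTCA, in 1.55%) and the CArG box (in 1.47%) were found in none of the 4 windows of 250 bases. A match is a description of the letters only.

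Cfl1 was the most abundant of the 8 genes at a level per length of 6039 CPM per kb of its main transcript, as the mean of 10 libraries. Tagln3 followed at 3439, Gap43 at 2740 and Ppp1ca at 721 CPM per kb. Coro1b (65.3), Klc2 (37.8), Ssh3 (9.94) and Nde1 (2.43 CPM per kb) were far lower. The ranges over libraries of Cfl1 (4761 to 9433 CPM per kb) and Tagln3 (2821 to 4166) did not overlap, and neither did those of Gap43 (1674 to 4527) and Ppp1ca (496 to 916) or of Ppp1ca and Coro1b (23.7 to 124). Tagln3 and Gap43 overlapped, as did Coro1b and Klc2 (24.0 to 56.3), and Ssh3 (0 to 20.8) and Nde1 (0 to 15.1). Klc2 and Ssh3 did not. Together the 8 genes took 1.28% to 2.35% of the fragments of a library, with 1.41% ± 0.157 in Sst (SD, n = 3), 1.39% ± 0.153 in Sst+Nic (n = 2), 1.60% ± 0.139 in Thy1 (n = 2) and 1.93% ± 0.371 in Thy1+Nic (n = 3).

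**Figure D1:**
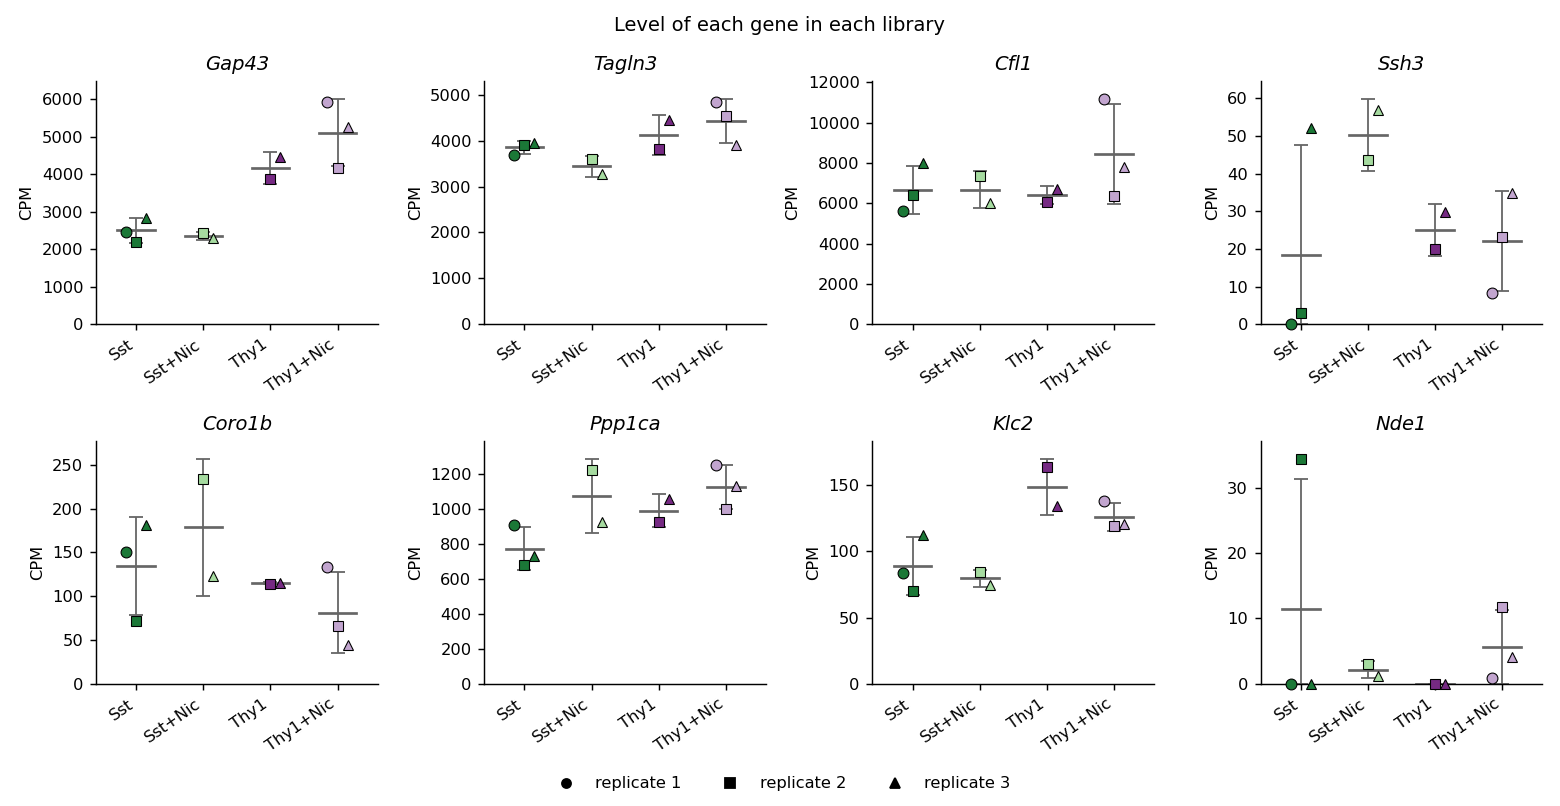
Level of each gene as CPM (y axis, linear, from 0) in every library, by group (x axis). Points are libraries with 1 symbol per replicate number, thick lines are group means and bars are SD, shortened at 0. Gap43 and Klc2 are lower in all 5 libraries of Sst-neurons than in any of the 5 of Thy1-neurons, and Nde1 reaches 34.4 CPM in a single library of Sst.

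Gap43 encodes neuromodulin, a membrane protein of growth cones and presynaptic terminals and a classic marker of axon growth. Its level was 2472, 2194 and 2839 CPM in Sst and 2429 and 2289 CPM in Sst+Nic. In Thy1 it was 3872 and 4468 CPM, and in Thy1+Nic 5931, 4157 and 5249 CPM. The highest library of Sst-neurons (2839) stood below the lowest of Thy1-neurons (3872), while libraries with and without nicotine overlapped within each cell type. Tagln3, a neuronal relative of the actin-binding transgelins, had a narrower range. It was at 3699, 3909 and 3951 CPM in Sst, 3595 and 3281 CPM in Sst+Nic, 3820 and 4441 CPM in Thy1 and 4845, 4539 and 3912 CPM in Thy1+Nic. Both Sst+Nic libraries were below all others, and the Sst and Thy1 libraries overlapped.

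Cfl1 encodes cofilin-1, which severs actin filaments. Its level was 5637, 6411 and 7984 CPM in Sst, 7329 and 6029.5 CPM in Sst+Nic, 6074 and 6711 CPM in Thy1 and 11169, 6358 and 7794 CPM in Thy1+Nic. All groups overlapped, and replicate 1 of Thy1+Nic was the highest by a wide margin. Ssh3, a Slingshot phosphatase that acts on cofilin, was low and uneven. It had 0, 12 and 193 counts in the Sst replicates, that is 0 (up to 0.746 allowed), 3.06 and 52.1 CPM. Its level was 43.6 and 57.0 CPM in Sst+Nic, 20.1 and 29.9 CPM in Thy1 and 8.35, 23.2 and 34.8 CPM in Thy1+Nic. The 3 Sst libraries thus covered nearly the whole range of the series, and the highest of them was also the library with the most Cd86 (50.5 CPM), the part of which was not tested.

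Coro1b encodes coronin-1B, which works with Slingshot and cofilin at actin branches. It was at 150.2, 71.9 and 181 CPM in Sst, 234 and 123 CPM in Sst+Nic, 114 and 116 CPM in Thy1 and 134, 65.7 and 44.8 CPM in Thy1+Nic. All pairs of groups that the design compares overlapped. Ppp1ca, a catalytic subunit of protein phosphatase 1, was at 909, 677 and 731 CPM in Sst and 1225 and 924 CPM in Sst+Nic. It was at 925 and 1056 CPM in Thy1 and 1249, 999.7 and 1132 CPM in Thy1+Nic. Its 3 Sst libraries were the lowest of the series.

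Klc2 encodes a light chain of kinesin-1, which links the motor to its cargo. Its level was 83.8, 69.6 and 113 CPM in Sst, 84.0 and 74.8 CPM in Sst+Nic, 164 and 134 CPM in Thy1 and 138, 119 and 120.5 CPM in Thy1+Nic. As with Gap43, no library of Sst-neurons reached the lowest of Thy1-neurons. Nde1, a dynein partner best known from neural progenitors, was close to its limit of detection. It had 0, 135 and 0 counts in Sst, 9 and 6 in Sst+Nic, 0 and 0 in Thy1 and 3, 50 and 14 in Thy1+Nic. The 135 counts equal 34.4 CPM (95% Wilson interval 29.1 to 40.8), and the 0 counts of Thy1 allow up to 0.859 and 0.824 CPM. The Sst library with these counts was also the one with the most Cldn5 (35.7 CPM), the part of which was not tested.

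The first comparison, Sst against Thy1, asked how the cell types differ without nicotine. Among the genes counted in every library, Gap43 and Klc2 had the largest differences, both lower in Sst-neurons, and Cfl1 and Coro1b had estimates near 0. A gene was called a DEG if its adjusted p-value in edgeR's quasi-likelihood test was under 0.05 and its log2 fold change exceeded 1 in size. By this rule 0 of the 8 genes were called, against 109 of 6351 entries tested (1.72%; 52 higher and 57 lower in Sst), and over all entries between 33 (without Thy1 replicate 2) and 55 (without Thy1 replicate 3) when any 1 of the 5 libraries was left out. At an unadjusted p-value under 0.05 there were 3 of the 8 and 1036 of all entries. DESeq2 called 1 of the 8, beside 564 of 6351 entries, namely Nde1, whose fitted value rests on 1 library against counts of 0. The limma voom fit called 0 of the 8. Gap43 had a log2 fold change of -0.92 (SE 0.203, 95% interval -1.40 to -0.43, edgeR adjusted p = 0.0876), that is 1.89-fold lower in Sst. The adjusted p of Gap43 ranged from 2.54e-04 (DESeq2) to 0.558 over the alternatives, and all 16 alternatives gave a lower level in Sst, between -1.15 and -0.67. Klc2 differed by -0.91 (SE 0.328, interval -1.69 to -0.14, edgeR adjusted p = 0.233) and Ppp1ca by -0.55 (SE 0.207, interval -1.04 to -0.06, edgeR adjusted p = 0.259). The adjusted p was under 0.05 in 0 of the 16 alternatives for Klc2 and in 1 for Ppp1ca.

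These 3 genes were also those whose CPM did not overlap, all lower in Sst, where 15.3% of all entries were lower and 20.0% higher without overlap. Tagln3 had a log2 fold change of -0.27 (interval -0.77 to 0.23) and Ssh3 one of -0.63 (interval -4.87 to 3.61). The value of Ssh3 was -4.04 without Sst replicate 3, which held most of its counts in Sst, and -0.09 without Sst replicate 1. For Cfl1 the value was -0.10 (interval -0.67 to 0.47). With the totals as library sizes, which moved the median of all entries from 0.05 to 0.22, it was 0.06, and relative to that median it was -0.15 and -0.16. For Coro1b it was 0.02 (interval -0.92 to 0.97), and with DESeq2 it turned to -0.03. The mean of Nde1 in Sst (11.5 CPM, from 1 of 3 libraries) was at least 13.4-fold higher than the limit that 0 counts allow in either Thy1 library. Without Thy1 replicate 3, the library with Sst transcripts, 0 of the 8 genes were called and the differences were -0.72 for Gap43, -0.98 for Klc2 and -0.37 for Ppp1ca. Those of the others were -0.07 for Tagln3, -0.21 for Ssh3, 0.06 for Cfl1 and 0.11 for Coro1b. The share of mitochondrially encoded fragments was higher in every Thy1 library than in any Sst library, and with these genes left out the values were -0.96, -0.95 and -0.59. The median over the 8 genes was -0.41, and over all entries tested it was 0.05. It moved to -0.14 without Thy1 replicate 3 (all entries 0.22), -0.15 without Sst replicate 1 (-0.05) and -0.64 without Thy1 replicate 2 (0.45). It was -0.24 in a fit of the well filled stretches alone (all entries 0.09), -0.23 with the totals (0.22) and -0.16 with uniquely mapped reads as library sizes (0.29).

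The second comparison, Sst+Nic against Thy1+Nic, asked the same in mice that had received nicotine. Gap43 was again the gene with the largest difference relative to its error, 3.06-fold lower in Sst+Nic, and Klc2, Tagln3 and Cfl1 were lower as well in the fit. None of the 8 passed the thresholds in edgeR (0 of 8, against 33 of 6509 entries or 0.507%, 15 higher and 18 lower). With 1 library left out, the calls over all entries ranged from 0 (without Thy1+Nic replicate 3) to 56 (without Sst+Nic replicate 3). In the fit of all 5 libraries, 4 of the 8 and 1025 of all entries were under 0.05 without adjustment. With DESeq2 2 of the 8 were called (Gap43 and Klc2), beside 508 of 6509 entries. With limma voom 1 was called (Gap43), beside 65 of 6509 entries. For Gap43 the log2 fold change was -1.61 (SE 0.279, interval -2.26 to -0.96, edgeR adjusted p = 0.0628). Its adjusted p fell to 4.39e-08 with DESeq2, 0.0102 with limma voom, 2.95e-04 without a filter on low counts, 0.00304 with a filter of at least 10 counts and 0.00473 with all libraries in 1 edgeR fit, while it rose to 0.341 without Sst+Nic replicate 2 and 0.381 with the replicate number as a block, so that the call of Gap43 depended on the method. All 16 alternatives gave a lower level in Sst+Nic, between -1.73 and -1.12.

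Klc2 differed by -1.17 (SE 0.363, interval -2.02 to -0.33, edgeR adjusted p = 0.213), with an adjusted p of 0.0270 in DESeq2. Tagln3 differed by -0.88 (interval -1.54 to -0.23, edgeR adjusted p = 0.222) and Cfl1 by -0.85 (interval -1.58 to -0.12, edgeR adjusted p = 0.254). The adjusted p was under 0.05 in 1 of the 16 alternatives for Tagln3 and in 0 for Cfl1. Ppp1ca had -0.58 (interval -1.21 to 0.04), Coro1b 0.57 (interval -0.70 to 1.84) and Ssh3 0.74 (interval -0.85 to 2.32, and from 0.36 without Sst+Nic replicate 3 to 1.09 without Thy1+Nic replicate 3). Libraries did not overlap for Gap43, Tagln3 and Klc2, which were lower, and Ssh3, which was higher in Sst+Nic. Over all entries, 8.66% were lower and 30.3% higher without overlap. These sizes depend on the scaling. TMM factors were 1.35 and 1.12 in Sst+Nic and 0.791 to 0.953 for Thy1+Nic, and with the totals as library sizes the median of all entries moved from 0.09 to 0.59. With the totals the values were -1.12 for Gap43, -0.66 for Klc2, -0.37 for Tagln3, -0.34 for Cfl1 and -0.07 for Ppp1ca. Those of Coro1b and Ssh3 were 1.13 and 1.19. Relative to the median of all entries, Gap43 was at -1.70 with either scaling, Tagln3 at -0.97 and -0.95, Cfl1 at -0.93 and -0.92, and Klc2 at -1.26 and -1.25. A change of scaling moves all entries nearly alike, so the likeness of these relative values follows from the method. As without nicotine, mitochondrially encoded genes took a higher share in every library of Thy1-neurons, and without these genes Gap43 was at -1.62. The median over the 8 genes was -0.87, and -0.35 with the totals.

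**Figure D2:**
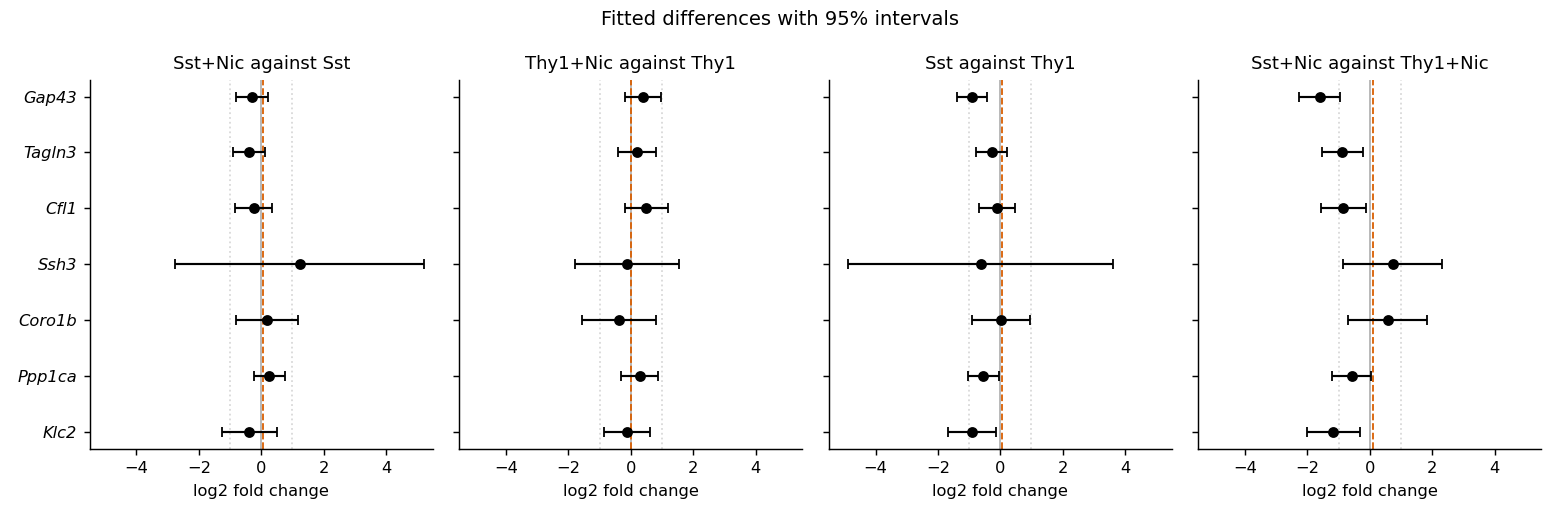
Log2 fold change of 7 genes (x axis) in 4 comparisons, with edgeR estimates as points and 95% intervals as bars. The dashed line is the median of all entries tested and dotted lines mark an absolute value of 1; Nde1 is left out because its fitted values rest on counts of 0. The intervals of Gap43 and Klc2 lie below 0 in both comparisons of cell types, and those of all 7 genes include 0 in both comparisons of nicotine with saline.

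Ratios of counts within a library do not depend on its total or on a scaling factor. The ratio of Gap43 to Cfl1 was 0.379 ± 0.0522 in Sst (SD, n = 3), 0.356 ± 0.0341 in Sst+Nic (n = 2), 0.652 ± 0.0200 in Thy1 (n = 2) and 0.619 ± 0.0772 in Thy1+Nic (n = 3). Libraries of Sst-neurons lay between 0.331 and 0.439 and those of Thy1-neurons between 0.531 and 0.673. The ratio of Gap43 to Tagln3 was also apart, with 0.561 to 0.718 in Sst-neurons and 0.916 to 1.34 in Thy1-neurons. The ratio of Tagln3 to Cfl1, in contrast, overlapped between all groups compared, with means from 0.517 to 0.645. So did the ratio of Ppp1ca to Cfl1, at 0.119 ± 0.0369 in Sst and 0.155 ± 0.00358 in Thy1. Its value in Sst replicate 1 (0.161) was above both Thy1 libraries (0.152 and 0.157). With nicotine the means were 0.160 in Sst+Nic and 0.138 in Thy1+Nic. Klc2 to Cfl1 was 0.0133 ± 0.00212 in Sst and 0.0234 ± 0.00495 in Thy1 without overlap, and with nicotine it was 0.0119 ± 0.000667 against 0.0155 ± 0.00319 with overlap. Ratios also differed without overlap between Thy1+Nic and Thy1, for Klc2 to Cfl1 with these values and for Coro1b to Cfl1 with means of 0.00935 and 0.0180. The latter was also apart between Sst+Nic (0.0262) and Thy1+Nic. Without Thy1 replicate 3, the values for Thy1 are those of replicate 2, namely 0.638 for Gap43 to Cfl1, 1.01 for Gap43 to Tagln3, 0.629 for Tagln3 to Cfl1, 0.0269 for Klc2 to Cfl1 and 0.0188 for Coro1b to Cfl1. With 3 against 2 libraries an exact permutation test cannot give a p-value below 0.1, and these ratios are a description.

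**Figure D3:**
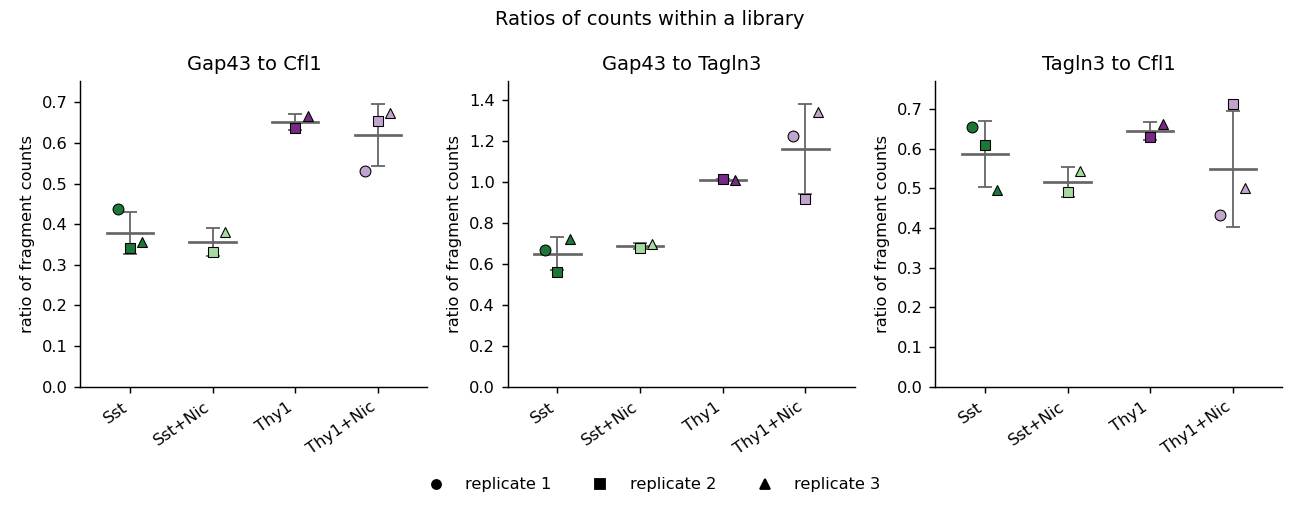
Ratio of fragment counts of 2 genes within each library (y axis, linear, from 0) by group (x axis). Points are libraries with 1 symbol per replicate number, thick lines are group means and bars are SD. Gap43 to Cfl1 stays at or below 0.439 in Sst-neurons and at or above 0.531 in Thy1-neurons, whereas Tagln3 to Cfl1 overlaps between the cell types.

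The comparisons of nicotine with saline asked for a response within each cell type. In Sst-neurons, 0 of the 8 genes and 0 of 6689 entries (0%) were called by edgeR. There were 0 of the 8 and 280 of all entries with an unadjusted p-value under 0.05. DESeq2 (18 of all entries) and limma voom called 0 of the 8. Every adjusted p of edgeR was 1.00. The log2 fold changes were -0.30 for Gap43 (interval -0.81 to 0.21), -0.39 for Tagln3 (interval -0.91 to 0.12) and -0.24 for Cfl1 (interval -0.83 to 0.35). They were 0.26 for Ppp1ca (interval -0.24 to 0.75), 0.19 for Coro1b (interval -0.81 to 1.18), -0.38 for Klc2 (interval -1.26 to 0.50) and 1.24 for Ssh3 (interval -2.75 to 5.23). That of Ssh3 was 4.68 without Sst replicate 3 and 0.66 without Sst replicate 1. For Gap43, Tagln3, Cfl1 and Ppp1ca these intervals exclude a change of 1 on the log2 scale, and for the others they do not. Libraries did not overlap for 2 of the 8 genes, Tagln3 (lower) and Ppp1ca (higher), and for 20.8% of all entries in either direction. The direction of Coro1b turned to -0.21 without Sst+Nic replicate 2, and that of Nde1 (-2.85) to 5.96 without Sst replicate 2, the only Sst library in which it was counted.

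In Thy1-neurons, edgeR again called 0 of the 8 genes and 0 of 6048 entries (0%), with 1 of the 8 and 264 of all entries at an unadjusted p-value under 0.05. DESeq2 (14 of all entries) and limma voom called 0 of the 8. Every adjusted p of edgeR was 1.00. Cfl1 had a log2 fold change of 0.50 (interval -0.18 to 1.18), Gap43 of 0.39 (interval -0.20 to 0.97), Ppp1ca of 0.28 (interval -0.32 to 0.88) and Tagln3 of 0.21 (interval -0.40 to 0.82). Coro1b had -0.37 (interval -1.56 to 0.82), Klc2 -0.13 (interval -0.86 to 0.60) and Ssh3 -0.12 (interval -1.80 to 1.56). Without Thy1 replicate 3 the values were 0.69 for Cfl1, 0.61 for Gap43, 0.50 for Ppp1ca, 0.45 for Tagln3, -0.25 for Coro1b and -0.16 for Klc2, and Ssh3 turned to 0.33, while the median of all entries moved from -0.0030 to 0.17. Nde1 was the single gene whose libraries did not overlap, higher with nicotine, where 20.9% of all entries did not overlap in either direction. Its mean of 5.6 CPM in Thy1+Nic, counted in 3 of 3 libraries, was at least 6.52-fold higher than the limit that 0 counts allow in either Thy1 library, but replicate 1 held only 3 counts, and without replicate 2 the mean was 2.49 CPM or 2.90-fold that limit.

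The interaction of nicotine and cell type asked whether the response to nicotine differed between Sst-neurons and Thy1-neurons. None of the 8 genes was called by edgeR (0 of 8, and 0 of 8242 entries or 0%), with 2 of the 8 and 604 of all entries at an unadjusted p-value under 0.05. DESeq2 called 1, namely Nde1 with its counts of 0, beside 4 of 580 entries of the stretches, and limma voom called 0. How many entries DESeq2 called over the whole series is given further on. The response of Sst-neurons less that of Thy1-neurons was -0.71 for Gap43 (interval -1.40 to -0.02, edgeR adjusted p = 0.673), -0.76 for Cfl1 (interval -1.59 to 0.07) and -0.62 for Tagln3 (interval -1.34 to 0.09). Without Thy1 replicate 3 these values were -0.91, -0.92 and -0.83. Of the 8 genes, 2 had values above 0, Ssh3 with 1.35 (interval -2.95 to 5.64) and Coro1b with 0.53 (interval -1.01 to 2.08), and 6 had values below 0. Klc2 was at -0.27 (interval -1.32 to 0.78). These 3 values were 0.93, 0.44 and -0.21 without Thy1 replicate 3, and without Sst replicate 3 that of Ssh3 was 4.79. The value of Ppp1ca was -0.05 (interval -0.75 to 0.65), and -0.24 without Thy1 replicate 3. With the totals as library sizes, which moved the median of all entries from -0.03 to 0.30, it was 0.29, and relative to that median it was -0.019 and -0.0068. The median over the 8 genes was -0.45. It was -0.54 without Thy1 replicate 3, where the median of all entries was -0.22, and -0.09 with the totals, where that of all entries was 0.30.

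Other cytoskeletal genes in the same stretches were listed by function for context. Of these 18, 15 were tested in Sst against Thy1, where 0 were called higher and 2 lower, beside 1.72% of all entries and 22 of 531 entries of the stretches in either direction. Rin1, a Ras effector of forebrain neurons, was at 0.995, 1.02 and 0.270 CPM in Sst against 152 and 60.4 CPM in Thy1, and it was lower in Sst (log2 fold change -7.19, SE 0.764, edgeR adjusted p = 0.00895). Sept5, a septin of presynaptic terminals, was at 222, 172 and 242 CPM in Sst against 566 and 598 CPM in Thy1, and it was lower in Sst too (-1.64, SE 0.234, edgeR adjusted p = 0.0227). With each of the 5 libraries left out in turn, Sept5 was called in none of the 5 fits (edgeR adjusted p from 0.0584 to 0.182, values from -1.81 to -1.52) and Rin1 in all but the one without Thy1 replicate 2 (-6.55, edgeR adjusted p = 0.0640). Without Thy1 replicate 3, Rin1 was at -7.66 and Sept5 at -1.52. Myo16, an unconventional myosin of neurons, had the smallest p among those with a higher level (4.27, SE 0.969, edgeR adjusted p = 0.0940), and was at 4.89 without Thy1 replicate 3. In Sst+Nic against Thy1+Nic, 17 were tested and 1 was called (beside 0.507% of all entries and 9 of 544 entries of the stretches), again Rin1 (-5.82, SE 0.775, edgeR adjusted p = 0.0326), while Sept5 did not pass (-1.31, SE 0.384, edgeR adjusted p = 0.194). In these 5 libraries the call of Rin1 held without Sst+Nic replicate 3 only, and with any other library left out its edgeR adjusted p was 0.0544 to 0.120. The difference between the comparisons, which is the interaction, was 0.32 for Sept5 (SE 0.444, edgeR adjusted p = 0.956) and 0.19 without Thy1 replicate 3. The list's median was -0.31 without nicotine and -0.07 with nicotine, beside 0.05 and 0.09 over all entries. With 1 library left out it ranged from -0.72 (without Thy1 replicate 3) to -0.21 (without Sst replicate 2) and from -0.38 (without Thy1+Nic replicate 1) to 0.39 (without Thy1+Nic replicate 2).

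**Figure D4:**
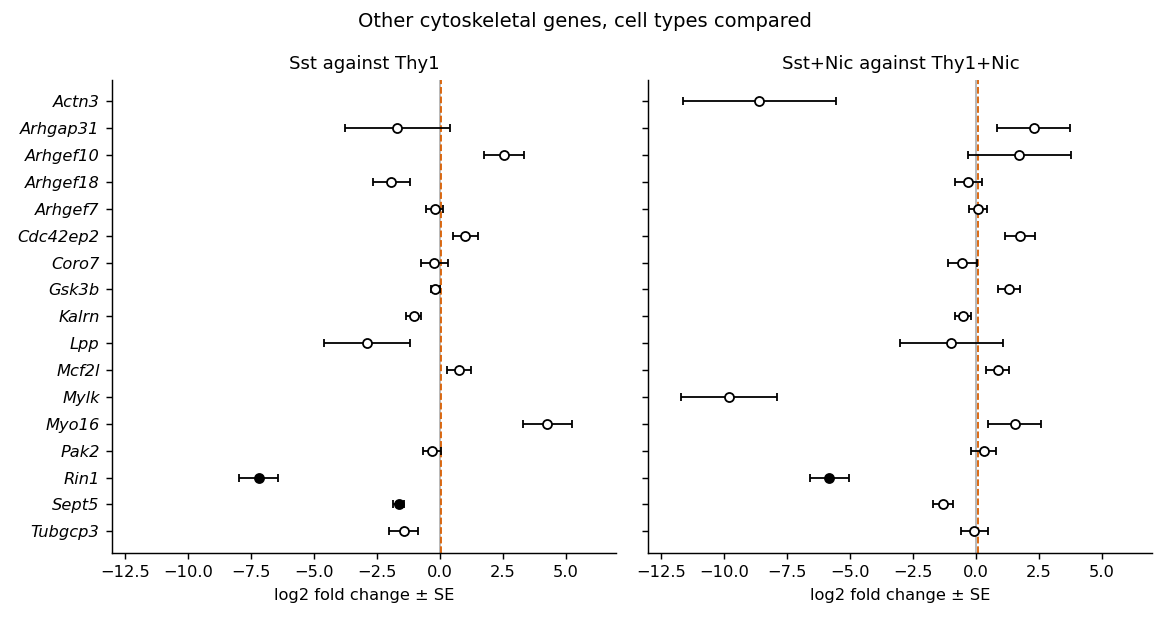
Log2 fold change with its SE (x axis) of the other cytoskeletal genes tested in Sst against Thy1 and in Sst+Nic against Thy1+Nic. Filled points passed both thresholds in edgeR, and the dashed line is the median of all entries tested. Rin1 is filled in both panels at -7.19 and -5.82, and Sept5 in the first only. Actn3 and Mylk, where shown, rest on counts of 0 in Sst+Nic. Rin1 rests on 4, 4 and 1 counts in Sst and on 3 and 15 in Sst+Nic.

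By the same rule none of these genes was called for nicotine, with 0 of 14 in Sst-neurons, 0 of 17 in Thy1-neurons and 0 of 17 for the interaction (edgeR; 0, 3 and 2 at an unadjusted p-value under 0.05, as were 4.19%, 4.37% and 7.33% of all entries). Gsk3b, a kinase that acts on many microtubule proteins, had the smallest p among those higher with nicotine in Sst-neurons, where its level was 3019, 2098 and 2573 CPM in Sst and 6173 and 2814 CPM in Sst+Nic (log2 fold change 0.57, SE 0.284). This value was 0.035 without Sst+Nic replicate 2 and 0.91 without Sst+Nic replicate 3. In Thy1-neurons it had the smallest p among those lower with nicotine, at 2747 and 2395 CPM in Thy1 and 809, 1716 and 1142 CPM in Thy1+Nic (-0.95, SE 0.355, and -0.92 without Thy1 replicate 3). Its interaction was 1.48 (SE 0.474, edgeR adjusted p = 0.673; 1.49 without Thy1 replicate 3). Between Sst+Nic and Thy1+Nic it differed by 1.31 (SE 0.424, edgeR adjusted p = 0.224), and by 0.80 without Sst+Nic replicate 2. In the remaining directions the smallest p belonged to Arhgef10 in Sst-neurons (-0.90, SE 0.797; -2.16 without Sst+Nic replicate 2 and -0.28 without Sst+Nic replicate 3), and to Mylk, myosin light chain kinase, in Thy1-neurons (3.46, SE 1.24) and for the interaction (-6.04, SE 2.49), with 0 counts of Mylk in both Sst+Nic libraries. Without Thy1 replicate 3 the values of Mylk were 2.78 and -5.36, and in Thy1-neurons its value was 2.16 without Thy1+Nic replicate 1 and 4.92 without Thy1 replicate 2.

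The genes whose pattern over the 10 libraries was most like that of Gap43 were sought among 447 entries in the same stretches with a mean of at least 10 CPM. Likeness was the root mean square difference of log2(CPM + 1) after each gene was centred on its own mean. The nearest were Ndufs8, a subunit of respiratory complex I (0.237), Klc2 (0.274) and Lztr1 (0.30), where the median entry differed by 0.939. Ndufs8 was at 1002 CPM in Sst, 876 in Sst+Nic, 1223 in Thy1 and 1573 in Thy1+Nic as group means. Nearest to Cfl1 were Golgb1, a Golgi membrane protein (0.127), Mrpl11 of the mitochondrial ribosome (0.169) and Sssca1 (0.178), against a median of 0.774. All libraries share the scale set by their totals, and this ranking carries no test.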

How the data were processed

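The paired-end reads had been aligned by the authors to mmu10.p2 (GRCm38) with TopHat, and the submitters' processing notes also name HTSeq. The deposited values are raw counts of fragments per gene entry, without normalization, and 16468 of 35129 entries were above 0 somewhere. Positions, matched by symbol (25710 entries) or synonym (3272), came from RefSeq. The genes, the lists, the named-gene rule (the 8 genes, called or smallest-p members of the cytoskeletal list per direction, markers in the stretches and the 3 entries nearest to Gap43 and Cfl1) and the stretch limits were chosen with earlier results of these data known. Transcript lengths came from GENCODE.

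Each pairwise comparison used the 5 libraries of its groups, and the interaction all 10. In R 4.3.3, edgeR 4.0.16 (quasi-likelihood test) was run with TMM and filterByExpr (minimum count 10) over all entries, with Benjamini-Hochberg adjustment. The 8 genes were kept for their names; 7 would have passed the filter in Sst against Thy1 (not Nde1) and 8 elsewhere. Intervals use the fit's own degrees of freedom. The fits were run on simulated counts with less spread than these data, whose common dispersion in edgeR was 0.826 to 1.19, and with large planted changes. That run therefore does not show how well the fits do on these libraries. DESeq2 1.42.0, limma 3.58.1, other library sizes and filters, a replicate block and each library left out were alternatives. Python 3.11.15, numpy 2.4.6, pandas 2.3.3, scipy 1.17.1 and matplotlib 3.10.9 were used for levels and figures. P-values measure the spread between libraries of a group, each from 1 mouse. In it, differences between mice cannot be told apart from those of cell sampling and amplification.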

Additional observations from a re-analysis of the deposited data

How the results depend on the processing

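Of the log2 fold changes of the 8 genes, 631 kept their direction and their side of the thresholds under the alternatives, 8 passed the thresholds under an alternative only and 32 turned their direction. Those that turned were at most 0.27 in size in the reported fit, apart from Nde1 with its counts of 0, and the cause was not tested.

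With DESeq2, 18 entries were called for nicotine in Sst-neurons, 14 in Thy1-neurons, 564 in Sst against Thy1 (1 of the 8 genes and 5 other cytoskeletal genes), 508 in Sst+Nic against Thy1+Nic (2 and 5) and 25 for the interaction (1 of the 8 genes). With no filter on low counts the calls were 8, 13, 454 (5 other cytoskeletal genes), 356 (1 of the 8 genes and 4 others) and 36 in the same order. Keeping entries that reached 10 counts in any library gave 7 for nicotine in Thy1-neurons, 266 and 275 (1 of the 8 genes) for the cell types and 27 for the interaction. For Sst+Nic against Thy1+Nic, limma voom called 65 entries and all libraries in 1 fit called 105, in each case with 1 of the 8 genes. Fits on the stretches alone called 26 and 15 entries between cell types, where the reported fits called 22 and 9 entries of these stretches, and the cause was not tested.

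In Sst against Thy1, Coro1b turned to -0.0322 with DESeq2, -0.0724 with limma voom, -0.0323 with RLE size factors, -0.0218 without mitochondrially encoded genes and -0.0137 with the filter at 10 counts. Cfl1 turned to 0.0629 with the totals, 0.153 with the uniquely mapped reads of the study's mapping table as library sizes and 0.0648 on the stretches alone. For nicotine in Sst-neurons Nde1 turned to 0.864 with limma voom, and Cfl1 was at 0.000382 with the totals. For the interaction Ppp1ca turned to 0.0372 with DESeq2, 0.0373 with RLE size factors, 0.290 with the totals and 0.0530 on the stretches alone, and Klc2 to 0.0833 with the totals. The totals moved the median of all entries too, and relative to it none of these 4 values under the totals was above 0 (Cfl1 at -0.16 and -0.27, Ppp1ca at -0.0068 and Klc2 at -0.21).

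The replicate numbers in the titles gave no sign of pairing the samples. Libraries with the same number correlated between -0.083 and 0.023 in their deviations from the group means. Comparisons shared only 2 numbers, which is too few to exclude a pairing. With the number as a replicate block, 59 and 9 entries were called between cell types without and with nicotine, Gap43 was at -0.82 and -1.47, Cfl1 turned to 0.0768 and Coro1b to -0.0969 without nicotine, Ssh3 turned to 0.298 for nicotine in Thy1-neurons and Ppp1ca to 0.0897 for the interaction. None of the 8 genes was called with the block.

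With each library left out in turn, 0 of the 8 genes were called in any comparison. The calls over all entries ranged from 33 (without Thy1 replicate 2) to 55 (without Thy1 replicate 3) in Sst against Thy1, from 0 (without Thy1+Nic replicate 3) to 56 (without Sst+Nic replicate 3) with nicotine and from 0 to 5 for the interaction. Those of the other cytoskeletal genes, an alternative chosen after seeing the data, ranged from 0 to 1 in both comparisons of cell types. Values ranged from -0.21 to 0.50 for Coro1b and from -3.50 to 5.96 for Nde1 (nicotine in Sst-neurons), from -0.49 to 0.33 for Ssh3 (nicotine in Thy1-neurons), from -0.303 to 0.0575 for Cfl1 and from -0.26 to 0.24 for Coro1b (Sst against Thy1), and from -0.24 to 0.15 for Ppp1ca (interaction). An arm left with 1 library is assumed to vary like the other group.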
